A study of Mus musculus with 10 samples.

Results

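The angiopoietin-Tie genes, the apelin pair and a group of tip cell products were compared in cardiac endothelial cells (ECs) of mice fed a ketogenic or a control diet. They were 10 genes chosen by name from the 46983 genes of the count table: Angpt1, Angpt2, Tek, Tie1, Ptprb, Apln, Aplnr, Esm1, Pdgfb and Adm. All mice were wild-type male C57BL/6J, were 8 weeks old when randomly assigned to a diet, and ate it for 14 days with free access to food and water. The 5 control mice received the purified diet D12359, with 11.6% of its energy as fat, and the 5 ketogenic mice D17011501, with 89.5%. Hearts were digested with collagenase and dispase, and cells were captured with CD31 antibodies on magnetic beads. Each library was taken to come from 1 mouse, which the study's methods do not state. CD31 is also carried by platelets and some leukocytes, so the capture enriches ECs without being limited to them. In such bulk samples, fewer cells of a type and less RNA per cell cannot be told apart. The total count of a mouse was 10885154 to 12710861 reads.

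Angiopoietin-1, made mainly by cells around vessels, activates the endothelial receptor TIE2 (Tek) and favours quiescent, tight vessels. Angiopoietin-2, stored and released by ECs, acts on the same receptor and in many settings opposes angiopoietin-1, TIE1 is a coreceptor, and the phosphatase VE-PTP (Ptprb) dephosphorylates TIE2. When a vessel sprouts, its leading tip cell raises a set of secreted products that includes apelin, ESM1, PDGF-B and adrenomedullin, and the apelin receptor (Aplnr) is found mostly on venous and capillary ECs.

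None of the 10 genes passed an adjusted p of 0.05 in edgeR's quasi-likelihood test, where 1.34% of the 15949 tested genes did, 0.809% with a rise and 0.527% with a fall on the ketogenic diet. At an unadjusted p under 0.05 there were 3 of them, Angpt1 and Angpt2 with lower and Aplnr with higher fitted values on the ketogenic diet, against 17.8% of tested genes. DESeq2, a second count test, called 1 of the 10, Angpt2, and 5.12% of all tested genes without and 5.1% with its prior on fold changes. The fitted log2 fold changes, ketogenic minus control, were below 0 for 7 genes and above 0 for 3, with a median of −0.06 beside −0.01 over all tested genes.

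**Figure D1:**
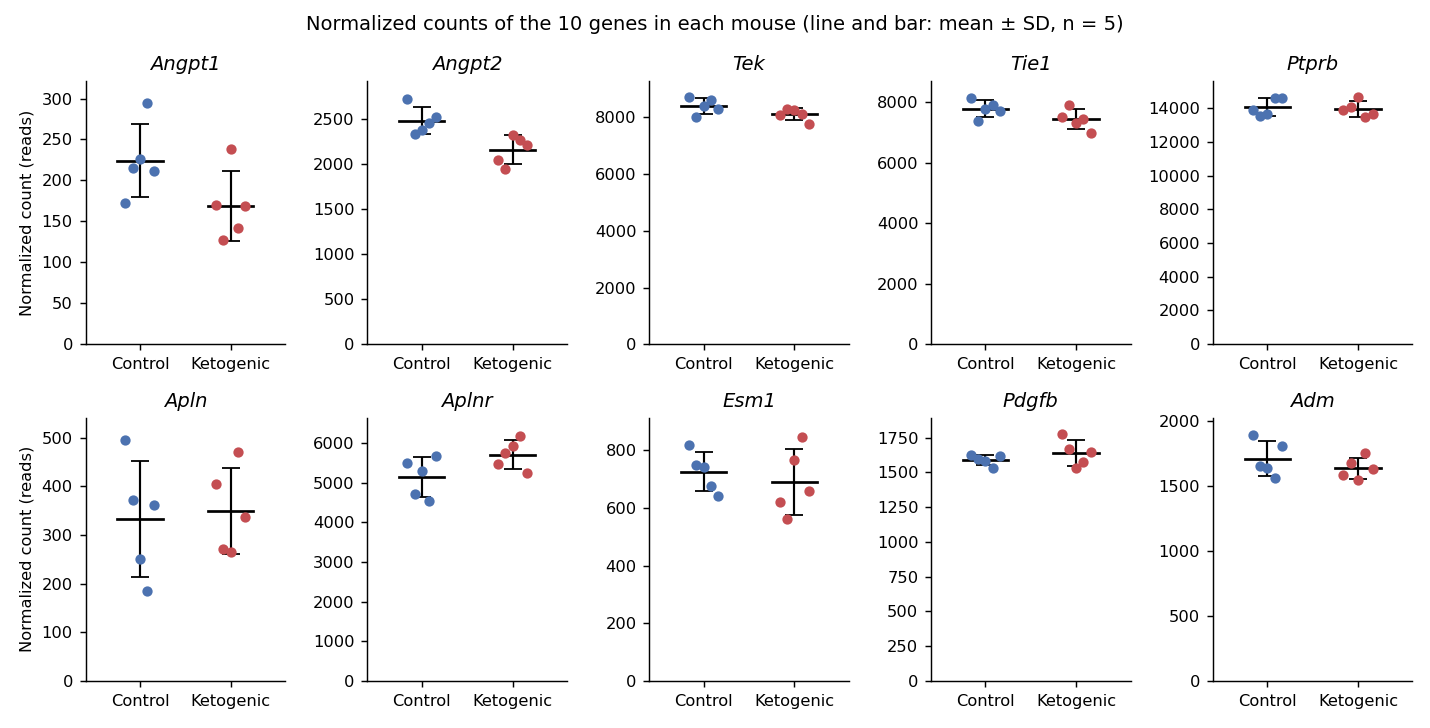
Normalized count (reads, vertical axis from 0) of each of the 10 genes in every mouse, with blue points for the control diet, red points for the ketogenic diet, a horizontal line at the mean and a bar of ± 1 SD (n = 5). In Angpt2 all 5 ketogenic mice sit below all 5 control mice, while in each of the other 9 genes the diets overlap.

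All 10 genes were well enough detected to be tested, at levels that spanned a wide range. RPKM gives the reads of a gene relative to its length and to the library total. On that scale Aplnr was highest with a mean level of 116 ± 11.3 (SD over the 10 mice). Ptprb followed with 101 ± 3.17, Tek with 93.7 ± 2.74 and Tie1 with 67.9 ± 2.76. Aplnr exceeded Ptprb in 9 of 10 mice and Ptprb exceeded Tek in 10 of 10, but the ranges of these neighbours overlapped. Adm with 48.0 RPKM, Pdgfb with 47.4 and Angpt2 with 47.2 could not be ordered, since their ranges overlapped, with Adm above Pdgfb in 5 and Pdgfb above Angpt2 in 4 of 10 mice. Esm1 lay below these at 29.0 RPKM in every mouse. Apln with 9.29 and Angpt1 with 3.96 were lowest, and Apln exceeded Angpt1 in 9 of 10 mice. On these values every receptor and the phosphatase lay above every ligand in all mice, an order that does not hold for other lengths. The levels rest on the gene lengths the authors used, which for Tie1 (9610 bases), Tek (7558) and Adm (2997) exceeded those of the principal transcript (4091, 4654 and 1390 bases). With principal lengths Tie1 was highest at 159 RPKM, followed by Tek with 152 and Aplnr with 126, and Adm with 103 overlapped Ptprb with 101. The genes also differed in how near their reads came to the number of positions at which a read can start. By principal lengths this was 91.2% to 94.7% for Tie1 and 1.43% to 3.29% for Angpt1. Whether this alters the order or spacing of the levels was not tested.

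Angpt2, the TIE2 ligand that ECs store and secrete, was the gene with the clearest separation of the diets. Its gene ENSMUSG00000031465.6 lies on the minus strand of chr8:18690263-18741562 (GRCm38), inside the gene Mcph1 of the other strand, with which it shares 0 exon bases. The normalized counts were 2715, 2332, 2374, 2454 and 2517 reads in control mice 1 to 5 and 2043, 1945, 2318, 2269 and 2213 in ketogenic mice 1 to 5. The highest ketogenic mouse, mouse 3, was just below the lowest control mouse, mouse 2. The diets were fully separated in this 1 of the 10 genes and in 4.34% of all tested genes, 1.94% with the ketogenic and 2.4% with the control mice lower. The means were 2478 ± 150 on the control and 2158 ± 158 on the ketogenic diet (SD, n = 5 each), a ratio of 0.871 with a 95% interval of 0.800 to 0.948. The log2 fold change of −0.20 (SE 0.0562) had an adjusted p of 0.10 in edgeR. The exact two-sided permutation test gave p = 0.00794, the smallest that 5 against 5 mice allow. In DESeq2 the adjusted p was 0.0315 without and 0.0306 with its prior, so the call rests on the count test chosen. Across all 26 alternative settings the log2 fold change stayed between −0.24 and −0.15 and the adjusted p between 0.0306 and 0.325.

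Angpt1, the activating ligand, was at low counts and its diets overlapped. It lies on the minus strand of chr15:42424723-42676977 (ENSMUSG00000022309.8) and shares 737 exon bases with the antisense gene Gm17473. In an unstranded library, reads within these bases cannot be assigned to either gene, and how they were counted is not known. Control mice 1 to 5 had 173, 215, 226, 295 and 211 normalized reads, and ketogenic mice 1 to 5 had 170, 128, 239, 142 and 169. In 4 ketogenic mice the count was below every control mouse, and in ketogenic mouse 3 it was above all controls but mouse 4. The means were 224 ± 44.4 and 169 ± 42.7, and the log2 fold change of −0.40 (SE 0.177) gave an edgeR adjusted p of 0.259 (exact permutation p = 0.0873).

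The level of Angpt1 moved with platelet transcripts. All 5 platelet markers (Pf4, Ppbp, Gp9, Itga2b and Gp1ba) had lower fitted values on the ketogenic diet, between −0.92 and −0.46 on the log2 scale, and 0 of 5 passed in edgeR, with a smallest adjusted p of 0.0815. Their summed level was 262 to 377 RPKM in control and 126 to 291 RPKM in ketogenic mice, and none of the 5 was at 0 in any mouse. A score of these markers (the mean of their z-scores over the 10 mice) was lower on the ketogenic diet by an exact permutation p of 0.0317, or 0.159 adjusted over the 10 cell type lists. With the diet means subtracted, Angpt1 correlated with this score over the 10 mice (Pearson r = 0.796, Spearman rho = 0.915), and r was 0.895 without the 2 mice farthest from the median score. With the score in the edgeR model, the fitted log2 fold change of Angpt1 was 0.06 (adjusted p = 0.902) in place of −0.40. Since the score itself was lower on the ketogenic diet, such a fit cannot separate diet from platelet content. The part of platelets in the values of Angpt1 was not tested. Angpt2 did not move with the platelet score (r = 0.00641), and its log2 fold change in that fit was −0.20 (edgeR adjusted p = 0.234). It did correlate with the macrophage marker score (r = 0.654, rho = 0.697), where r was 0.292 without the 2 mice farthest from the median score. With the macrophage score in the model its log2 fold change was −0.15 (edgeR adjusted p = 0.202). The correlations are given as a description, from 100 pairs of a gene and a score that were computed.

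**Figure D2:**
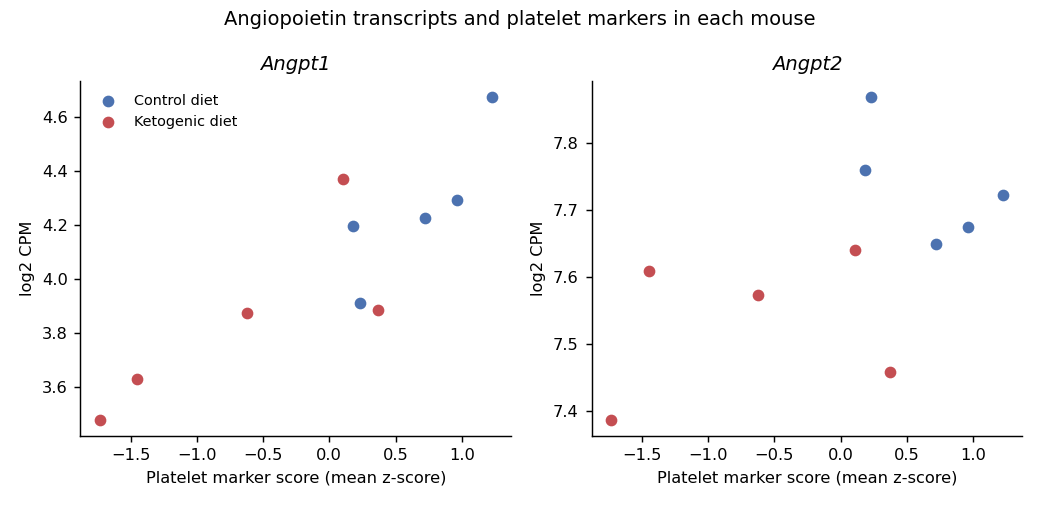
Level of Angpt1 and Angpt2 (log2 CPM, the log2 of reads relative to the library total, vertical axes) against the platelet marker score (mean z-score of 5 genes, horizontal axes) in each mouse, blue for control and red for ketogenic. Angpt1 rises along the score in both diets (r = 0.796 with diet means subtracted), whereas for Angpt2 the red points lie below the blue ones with no slope (r = 0.00641).

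The receptor genes Tek and Tie1 did not pass between the diets. Tek (ENSMUSG00000006386.15, plus strand of chr4:94739289-94874976) encodes the receptor of both angiopoietins, and its mean was 8406 ± 285 normalized reads on the control and 8108 ± 207 on the ketogenic diet. All 5 ketogenic mice were below the control mean, yet the ranges, 7997 to 8710 and 7774 to 8299, overlapped. The log2 fold change of −0.05 (95% interval −0.12 to 0.01) had an edgeR adjusted p of 0.380. Tie1 (ENSMUSG00000033191.14, minus strand of chr4:118471191-118490061), the coreceptor, had means of 7779 ± 279 and 7433 ± 332 reads. Its log2 fold change of −0.07 (95% interval −0.14 to 0.01) had an edgeR adjusted p of 0.363.

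The deposited counts of these receptors hardly varied. The raw count of Tie1 lay between 7460 and 7746 and that of Tek between 7938 and 8532, with coefficients of variation (CV) of 1.2% and 2.2% over the 10 mice, less than the 4.77% of the total counts. Across the table, only 26 of 469830 values reached the number of positions, counted on both strands over the length the authors used, at which a read of the gene can start. By that length the counts equalled 38.8% to 40.3% of the positions for Tie1 and 52.5% to 56.4% for Tek. By the shorter principal transcript they equalled 91.2% to 94.7% for Tie1 and 85.3% to 91.7% for Tek, a number that other genes exceeded (Nrp1 with 147% to 152% and Pdgfd with 123% to 142%). Whether the positions bound these counts was not tested. The log2 CPM of both genes fell as the library total grew (for Tie1 r = −0.975, rho = −0.964 and for Tek r = −0.932, rho = −0.927, n = 10 mice), and r was −0.936 and −0.831 without the 2 mice of most extreme totals. The totals had medians of 11285659 on the control and 11837379 on the ketogenic diet (exact permutation p = 0.230). Normalized values divide these nearly constant counts by the library size. The part of the totals in the fitted differences of both genes was not tested. Correcting the counts for the start positions of the principal transcript, a setting added after the data were seen, called neither gene. Tek and Tie1 varied together among mice (r = 0.868, rho = 0.782), and both shared this tie to the total.

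**Figure D3:**
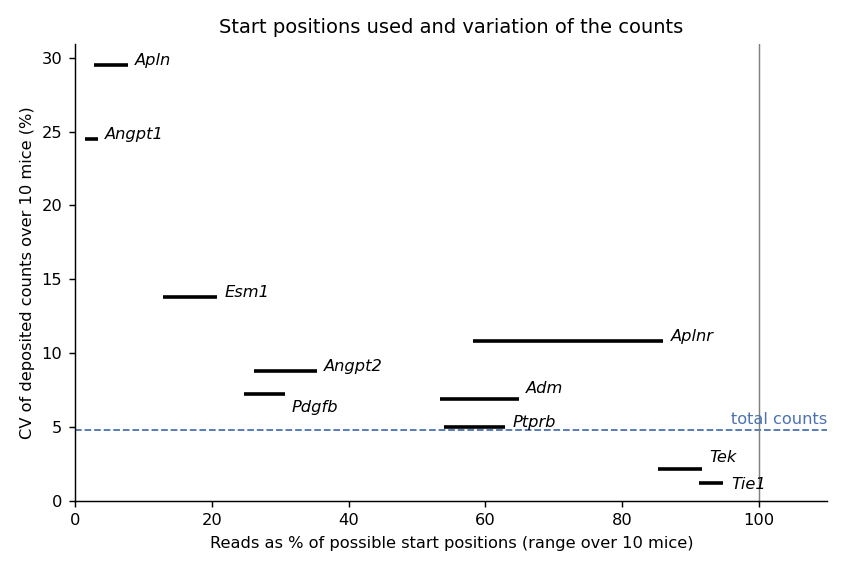
Reads of each gene as a percentage of the possible start positions of its principal transcript (horizontal bars, lowest to highest of 10 mice) against the CV of its deposited counts (percent, vertical axis), with the CV of the total counts as a dashed line and the full number of positions as a grey line. Tie1 and Tek lie at 85.3% to 94.7% with a CV below that of the totals, while Apln and Angpt1 use under 8% and vary most.

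Ptprb, the phosphatase that acts on TIE2, showed the smallest fitted difference of the 10 genes. It lies on the plus strand of chr10:116275523-116389535 (ENSMUSG00000020154.9), and its raw count, up to 14973 reads, was the highest of any gene in the table. The means were 14056 ± 524 reads on the control and 13946 ± 462 on the ketogenic diet. Its log2 fold change of −0.01, with a 95% interval of −0.08 to 0.06, had an edgeR adjusted p of 0.880, and its sign changed between settings. Its reads equalled 54.0% to 62.9% of start positions by either length.

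Per unit of length, Angpt2 exceeded Angpt1 in every mouse. The ratio of their RPKM values was 11.6 ± 2.74 on the control and 13.4 ± 2.55 on the ketogenic diet, with overlapping ranges of 8.41 to 15.9 and 9.82 to 16.2. The ratio of Angpt2 to Tek was 0.529 ± 0.0228 and 0.478 ± 0.0395, and the ranges, 0.506 to 0.559 and 0.420 to 0.511, overlapped narrowly.

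Among 15 tested genes that act with angiopoietins and TIE receptors (adaptors, integrins and other ligands), 0 passed in edgeR, beside 1.34% of all tested genes. At an unadjusted p under 0.05 there were 2 with higher and 1 with lower values, beside 17.8% of all tested genes. The median log2 fold change was 0.05, beside −0.01 over all tested genes. The 3 at the highest level were the integrin subunits Itga5 (67.8 RPKM) and Itgb1 (47.4 RPKM) and the adaptor Nck1 (38.9 RPKM). Itga5 had 3664 ± 225 reads on the control and 3265 ± 217 on the ketogenic diet, a log2 fold change of −0.17 (adjusted p = 0.136). The adaptor gene Grb14, chosen after its values were seen, had 73.5 ± 12.9 and 109 ± 6.18 reads, with an edgeR adjusted p of 0.0614. Every ketogenic mouse was above every control mouse, as in 2.4% of all tested genes. DESeq2 called Grb14 (adjusted p = 0.0157 without and 0.0149 with the prior), so that this call too rests on the test.

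Promoter sequence was at hand for 5 of the 10 genes, and is shown for the 3 secreted tip cell products among them, of which Apln and Adm varied together among mice. Each line holds the 250 bases before the RefSeq start site (GRCm38.p6), 5′ to 3′ on the strand of the gene. Capitals mark matches, on either strand, to the hypoxia response element cores ACGTG and GCGTG, the ETS core AGGAA, the forkhead core TGTTTAC and the TATA box core TATAA.
Apln: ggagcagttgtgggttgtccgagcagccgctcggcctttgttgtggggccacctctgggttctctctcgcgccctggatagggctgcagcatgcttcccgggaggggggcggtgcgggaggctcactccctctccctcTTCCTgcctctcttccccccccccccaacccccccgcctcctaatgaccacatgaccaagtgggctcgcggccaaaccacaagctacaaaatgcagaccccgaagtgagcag
Adm: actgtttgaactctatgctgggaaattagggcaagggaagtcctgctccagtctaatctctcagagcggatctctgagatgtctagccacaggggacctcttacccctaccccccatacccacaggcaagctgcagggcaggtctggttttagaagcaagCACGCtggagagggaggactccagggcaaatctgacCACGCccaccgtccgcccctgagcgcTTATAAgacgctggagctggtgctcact
Esm1: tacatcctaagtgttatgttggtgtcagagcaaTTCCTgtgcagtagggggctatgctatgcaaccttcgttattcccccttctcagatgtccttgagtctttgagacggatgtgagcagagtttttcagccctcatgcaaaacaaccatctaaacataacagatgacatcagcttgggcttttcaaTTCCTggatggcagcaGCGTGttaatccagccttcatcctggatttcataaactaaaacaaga
The Apln window spans chrX:48034854-48035103 (minus strand), the Adm window chr7:110627407-110627656 (plus) and the Esm1 window chr13:113209409-113209658 (plus). The Apln window held 1 AGGAA match, on the opposite strand, 112 to 108 bases before the start. The Adm window held 2 GCGTG matches, 90 to 86 and 54 to 50 bases before the start, and TATAA on both strands from 28 to 23 bases before it, in matches that overlap by 4 bases. Esm1 had 1 GCGTG match and 2 AGGAA matches. Of 32851 RefSeq windows of this length, 28.2% hold GCGTG, 16.6% ACGTG, 60.3% AGGAA, 3.17% TGTTTAC and 22.8% TATAA, and the longer strings CCGGAA (12.0%) and TATAAA (12.4%) were searched and had no match in these 3 windows. The matches are a description of these letters only.

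The apelin pair split into a scarce, variable ligand and an abundant receptor. Apln (ENSMUSG00000037010.7, minus strand of chrX:48025146-48034853) encodes the secreted peptide. Its normalized counts were 495, 372, 251, 184 and 362 reads in control mice 1 to 5 and 405, 272, 264, 470 and 336 in ketogenic mice 1 to 5. No ketogenic mouse lay outside the control range, within which the highest mouse had 2.68 times the reads of the lowest. The means were 333 ± 120 and 349 ± 88.2, with a log2 fold change of 0.07 and a wide 95% interval of −0.46 to 0.60 (edgeR adjusted p = 0.907).

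Aplnr (ENSMUSG00000044338.9, plus strand of chr2:85136225-85139923) encodes the G protein-coupled receptor of apelin. Control mice 1 to 5 had 5507, 4719, 5285, 4533 and 5686 normalized reads and ketogenic mice 1 to 5 had 5463, 5751, 5922, 6182 and 5241. All 5 ketogenic mice were above the control mean and 3 were above every control mouse. The means were 5146 ± 500 and 5712 ± 371, a ratio of 1.11 with a 95% interval of 1.01 to 1.23. The log2 fold change of 0.15 (SE 0.0653) did not pass after adjustment (edgeR adjusted p = 0.254, exact permutation p = 0.0952). The reads of Aplnr equalled 58.2% to 86.0% of the start positions of its principal transcript, and with counts corrected for them its log2 fold change was 0.38 (edgeR adjusted p = 0.150). With the platelet score in the model it was 0.05 (edgeR adjusted p = 0.822) and with the cardiomyocyte score 0.08 (0.797). With the mural score it was 0.17 (0.280) and with the macrophage score 0.22 (0.0864). The RPKM ratio of Aplnr to Apln was 13.4 ± 4.46 on the control and 13.5 ± 3.41 on the ketogenic diet.

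Adm (ENSMUSG00000030790.14, plus strand of chr7:110627661-110629820) encodes adrenomedullin, a vasodilator and vessel growth factor. Its counts were 1895, 1657, 1640, 1560 and 1811 normalized reads in control mice 1 to 5 and 1584, 1682, 1549, 1753 and 1631 in ketogenic mice 1 to 5. The ranges overlapped, with 1 ketogenic mouse below all controls and control mice 1 and 5 above every ketogenic mouse. The means of 1713 ± 137 and 1640 ± 80.8 reads gave a log2 fold change of −0.06 (95% interval −0.19 to 0.06, edgeR adjusted p = 0.595).

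Among 10 tested receptors, coreceptors and processing enzymes of apelin and adrenomedullin, 0 passed in edgeR, beside 1.34% of all tested genes. At an unadjusted p under 0.05 there were 1 with higher and 2 with lower values, beside 17.8% of all tested genes. Calcrl, the adrenomedullin receptor, had 5831 ± 140 reads on the control and 6304 ± 342 on the ketogenic diet, a log2 fold change of 0.11 (adjusted p = 0.147). Its accessory protein genes Ramp2 and Ramp3 had log2 fold changes of −0.04 and 0.10 (edgeR adjusted p of 0.643 and 0.309), and Ramp1, at 136 to 301 raw reads, one of 0.02. Ackr3, a scavenging receptor of adrenomedullin and a chemokine, had 3773 ± 196 and 3491 ± 104 reads, −0.11 on the log2 scale (adjusted p = 0.165). Gpr182, a scavenging receptor of chemokines, had a log2 fold change of 0.11 (adjusted p = 0.433). The second apelin receptor ligand Apela, the protease gene Mme and the related peptide gene Adm2 had at most 9 reads in any mouse and were not tested.

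Esm1 (ENSMUSG00000042379.8, plus strand of chr13:113209659-113218098) encodes the secreted proteoglycan endocan, a widely used tip cell marker. Its normalized counts were 820, 750, 741, 678 and 643 reads in control mice 1 to 5 and 621, 560, 767, 847 and 658 in ketogenic mice 1 to 5. The ketogenic mice spread on both sides of the controls, 2 below all of them and 1 above. The means were 726 ± 68.7 and 691 ± 115 reads, a log2 fold change of −0.07 (95% interval −0.31 to 0.16, edgeR adjusted p = 0.768).

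Pdgfb (ENSMUSG00000000489.6, minus strand of chr15:79995874-80014977) encodes the ligand with which ECs recruit pericytes. Control mice lay close together, at 1528 to 1624 normalized reads, and ketogenic mice at 1534 to 1773, of which 3 exceeded every control. The means were 1589 ± 39.1 and 1638 ± 92.5 reads, and the 95% interval of the log2 fold change of 0.04 ran from −0.05 to 0.14 (edgeR adjusted p = 0.625). With the diet means subtracted, Pdgfb ran opposite to the score of 7 fibroblast markers (r = −0.854, rho = −0.770, and r = −0.751 without the 2 mice farthest from the median score). Of the 5 other PDGF ligand and receptor genes tested, 0 passed in edgeR and 0 had an unadjusted p under 0.05, beside 1.34% and 17.8% of all tested genes. Pdgfd was at the highest level, 97.1 RPKM, followed by the pericyte receptor Pdgfrb with 52.0 RPKM and Pdgfa with 7.80 RPKM. Pdgfra, the fibroblast receptor, had 324 ± 50.3 and 401 ± 125 reads, a log2 fold change of 0.31 (adjusted p = 0.444).

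**Figure D4:**
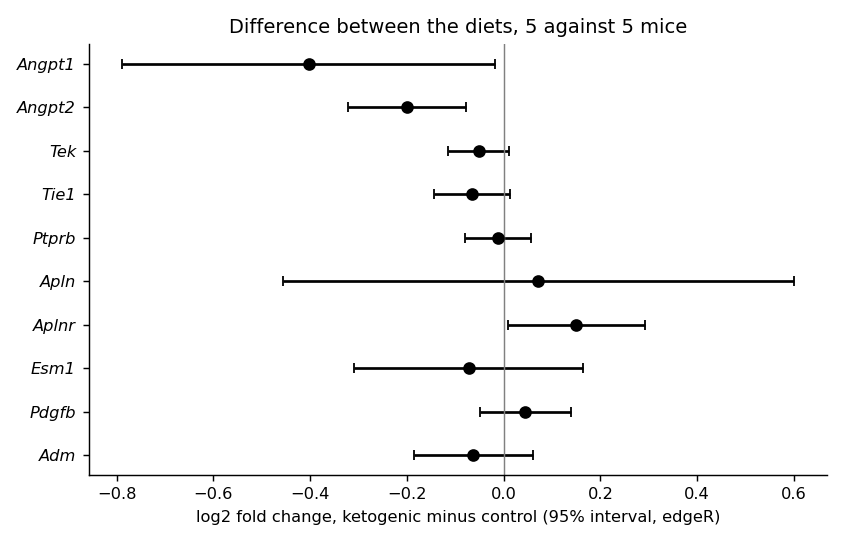
Fitted log2 fold change of each of the 10 genes (horizontal axis, ketogenic minus control, n = 5 mice each), with points for the estimate and bars for the 95% interval from edgeR. The intervals of Angpt1, Angpt2 and Aplnr leave out 0 before adjustment, and those of Angpt1 and Apln are the widest.

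Tip cell genes outside the 10 fell in 2 cases. Of 22 tested, 2 fell, 0 rose and 20 did not pass (edgeR, adjusted p of 0.05), with a median log2 fold change of −0.05. Over all tested genes 0.527% fell and 0.809% rose, with a median of −0.01. Igfbp3, a secreted binding protein of insulin-like growth factors, fell from 1078 ± 99.3 to 696 ± 42.9 normalized reads, a log2 fold change of −0.63 (SE 0.0687, adjusted p = 0.00134). Dll4, the Notch ligand by which a tip cell restrains its neighbours, fell from 4854 ± 160 to 4282 ± 111 reads, −0.18 on the log2 scale (SE 0.0307, adjusted p = 0.0170). In both, every ketogenic mouse was below every control mouse, as in 1.94% of all tested genes. The fall of Igfbp3 was known when the list was written, and it passed in all 26 alternatives. The call of Dll4 was lost in 6 of them, among them without control mouse 3 (adjusted p = 0.0533), without ketogenic mouse 3 (0.0509), without ketogenic mouse 4 (0.0521) and with the platelet score in the model (0.139), and Igfbp3 then was the only one of the list to pass in edgeR. Nrp1, a VEGF coreceptor, at 157 RPKM the highest of the list, and Pgf, a VEGF family ligand at 84.7 RPKM, had log2 fold changes of −0.05 and −0.08 (adjusted p of 0.464 and 0.411). The adhesion gene Mcam, chosen after its values were seen, had every ketogenic mouse below every control and a log2 fold change of −0.16 (edgeR adjusted p = 0.0658, DESeq2 0.0130 without and 0.0125 with the prior).

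Several of the 10 genes, Adm, Apln and Angpt2 among them, are known to be raised by hypoxia, so other hypoxia-inducible genes were counted. Of 16 tested, 1 fell and 0 rose, beside 0.527% and 0.809% of all tested genes. In 14 the log2 fold change was below 0, as it was in 51.4% of all tested genes, and the medians were −0.10 and −0.01. The gene that fell was Slc2a1, the glucose transporter GLUT1, from 1384 ± 69.1 to 1061 ± 46.9 reads, −0.38 on the log2 scale (SE 0.0480, edgeR adjusted p = 0.00308). It passed in 25 of 26 alternatives and missed with the cardiomyocyte marker score in the model, where the log2 fold change was still −0.38 (adjusted p = 0.0830). The 3 at the highest level did not pass: Ddit4, an inhibitor of mTOR signalling, had −0.07 (adjusted p = 0.868), Ldha, lactate dehydrogenase A, −0.18 (0.117) and Egln1, the oxygen-sensing prolyl hydroxylase, 0.18 (0.235). Ldha passed in 3 of 26 alternatives, both DESeq2 fits (adjusted p = 0.0485 and 0.0474) and edgeR without ketogenic mouse 2 (0.0127).

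**Figure D5:**
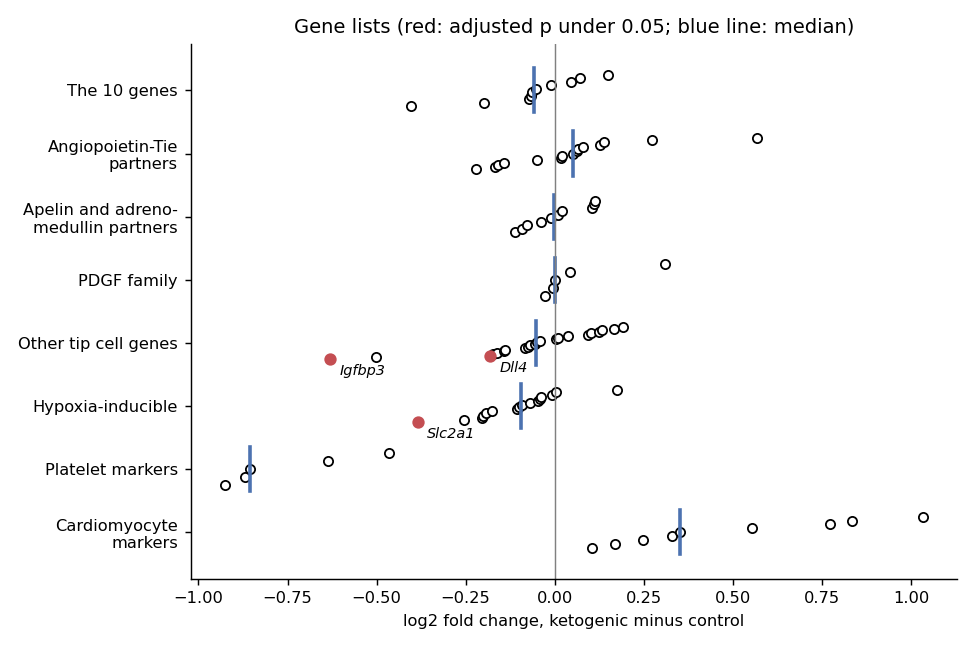
Log2 fold change (horizontal axis, ketogenic minus control) of every tested gene in the 10 genes, 5 related lists and the platelet and cardiomyocyte marker lists, with red points for an edgeR adjusted p under 0.05 and blue bars at list medians. Red points are Igfbp3, Dll4 and Slc2a1, the 5 platelet markers lie left of 0 and the 9 cardiomyocyte markers right of it, none of them red.

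Among mice of the same diet, some of the 10 genes varied together, as read from log2 CPM with the diet means subtracted (45 pairs, 10 mice, given as a description of pairs that share libraries). Apln and Adm rose and fell together (r = 0.776, rho = 0.794, and r = 0.501 without the 2 mice farthest from the median of Apln), as did Aplnr and Adm (r = 0.713, rho = 0.60, 0.651) and Angpt2 and Esm1 (r = 0.701, rho = 0.661, 0.485). Angpt1 ran opposite to Adm (r = −0.819, rho = −0.891, −0.754), and Adm ran opposite to the platelet score as well (r = −0.776, rho = −0.806, −0.907). Among 10880 tested genes whose counts averaged 100 or more, those most like each gene by the same r were Rabif (0.945) and Tbc1d8b (0.937) for Angpt1, Fam114a1 (0.948) and Cbr1 (0.944) for Angpt2, and Hmmr (0.963) and Sept8 (0.947) for Apln. For Aplnr they were Dnmt1 (0.958) and Chrac1 (0.916), for Adm Fancg (0.934) and C3ar1 (0.932), for Pdgfb Zfp64 (0.955) and Htatsf1 (0.931), for Esm1 Cd55 (0.912) and Insig2 (0.898), and for Ptprb Slc38a7 (0.938) and Prkar1b (0.902). The genes most like Tek were Leprot (0.983) and Gm6665 (0.980), and those most like Tie1 were Sgk1 (0.996) and Fos (0.990). The raw counts of Sgk1 and Fos reached 107% and 104% of the start positions of their principal transcripts. For each gene these are the 2 highest of 10880 values of r over 10 mice, and they are given as a description. How high r would run among as many unrelated genes was not tested. None of these 20 passed between the diets, the nearest being Hmmr, a mitotic gene, with a log2 fold change of 1.01 (edgeR adjusted p = 0.0592).

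All 8 endothelial markers were detected in every mouse, at a summed level of 591 to 625 RPKM in control and 565 to 641 RPKM in ketogenic mice. Their log2 fold changes were below 0 in 6 and above 0 in 2, and 0 passed in edgeR (exact permutation p of the score = 0.135). The raw counts of Pecam1 (6770 to 7020), Cdh5 (7356 to 7571) and Esam (3861 to 4004) hardly varied. Those of Erg (2154 to 2931) and Flt1 (8366 to 9829) varied more. Markers of other cells were present too, those of mural cells at 678 to 739 RPKM and those of fibroblasts at 217 to 269 RPKM over all mice, and no marker of any list was at 0. These sums run over 11 mural, 7 fibroblast and 8 endothelial genes. They do not give the shares of cells or of RNA. All 9 cardiomyocyte markers had higher fitted values on the ketogenic diet (summed level 159 to 195 RPKM in control and 179 to 248 RPKM in ketogenic mice, exact permutation p of the score = 0.0238, 0.159 adjusted over 10 lists), and 0 of 9 passed in edgeR. The part of these cells in the values of the 10 genes was not tested beyond the fits with a marker score as a term, which called none of the 10. One marker of another cell passed, the B cell gene Cd79a, named after its values were seen, with a log2 fold change of −0.46 (edgeR adjusted p = 0.0221). Of the 6 lymphocyte markers tested, 3 had log2 fold changes above 0 and 3 below. Over all tested genes 1.34% passed, 0.527% with a fall. Cd79a passed in 16 of 26 alternatives and in 5 of the 10 that leave out a mouse. It missed with each of the 4 marker scores in the model (log2 fold changes of −0.47 to −0.38, adjusted p of 0.0539 to 0.173).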

How the data were processed

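Polyadenylated RNA of CD31+ cardiac cells was made into cDNA with the SMART-Seq v4 kit, which does not record the strand, and sequenced as single reads. The submitters' processing notes name bcl2fastq 2.17.1.14, STAR 2.3, HTSeq 0.6.0 and build mm10, and whether repeated reads were removed is not given in the sources used here. The authors deposited raw counts per gene and RPKM values, in which counts are divided by gene length and library total. Columns were assigned to diets by the labels.

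Of 46983 identifiers, 37902 were found in GENCODE M21 with their version and 46488 without it. Counts were tested with edgeR 4.0.16 in R 4.3.3 (TMM, filterByExpr, quasi-likelihood F-test, Benjamini-Hochberg over 15949 genes), and its adjusted p is meant wherever no tool is named. A normalized count is the count scaled by TMM to the mean effective library of 11631440 reads. Standard errors and 95% intervals were derived from the F statistic, and log2 CPM used a prior count of 2. Exact permutation tests were two-sided. The code was tested on simulated data. Each label was taken as 1 mouse, which the study's methods do not state, and the p-values measure the spread between these libraries. Positions are 2 per base of transcript.

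The 10 genes and all lists were chosen with earlier results of these data known. Named are the 10 genes, in each list up to 6 genes that passed and the 3 of highest RPKM, set receptors, the 2 genes most like each of the 10, and up to 3 genes per marker list. The 3 motifs with matches were added to the search after the other 4 had no match in the windows of these genes. Alternatives were scaling by library size alone, by upper quartiles or by DESeq2's size factors, 2 other filters, DESeq2 1.42.0 with and without a prior, limma 3.58.1 on log2(RPKM + 1) and log2(RPKM + 0.1), the replicate block, 4 marker scores as covariates, counts corrected for start positions by either length, and each mouse left out.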

Additional observations from a re-analysis of the deposited data

Results flagged for a closer look

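In groups of 5 mice, the highest or lowest mouse was compared with the rest by Dixon's ratio, for values that included the 10 genes and the marker scores. Of 42 groups, 2 passed the critical ratio of 0.71, where chance gives about 1 in 20, or 2.1. None of the 10 genes was among them.

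The macrophage marker score of ketogenic mouse 4 was 0.687, while the other 4 ketogenic mice lay between −0.629 and −0.475 (ratio 0.883). The erythroid marker score of control mouse 2 was −1.40, while the other control mice lay between 0.455 and 0.756 (ratio 0.861). Over all mice the raw counts of Hba-a1 (97 to 98), Hba-a2 (98 to 101), Hbb-bs (439 to 465) and Hbb-bt (379 to 413) hardly varied. Those of Alas2 (1973 to 2648) varied more. Control mouse 2 had the highest total of the control mice, 12206734 reads. The part of the totals in this score was not tested. Without ketogenic mouse 4 the log2 fold change of Angpt2 was −0.218 (edgeR adjusted p = 0.129), beside −0.20 (0.10) with all mice. Leaving out each mouse in turn gave −0.22 to −0.16, a range that includes this fit.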

How the results depend on the processing

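Of the 26 alternatives, only the 2 with DESeq2 called any of the 10 genes, 1 in each, Angpt2. The number of genes called in the whole table was 213 in edgeR, 816 and 814 in DESeq2 without and with the prior, 113 with the replicate block, 21, 106 and 135 with the cardiomyocyte, mural and macrophage score as a covariate, and 269 with the platelet score, of which 86 were higher and 183 lower, against 129 and 84 without it. Leaving out single mice gave 86 (without control mouse 2) to 492 (without ketogenic mouse 2). The other tip cell genes called were 2 in edgeR, 4 and 5 in DESeq2 without and with the prior, 1 with the replicate block, the cardiomyocyte or the platelet score, and 1 to 2 when a mouse was left out. The cause was not tested in any of these. Directions turned for 5 genes, none of which passed in any setting. Angpt1 turned to 0.056 and Apln to −0.19 with the platelet score, Esm1 to 0.00907 with the macrophage score, and Gpr182 to −0.11 with the cardiomyocyte score. Ptprb turned to 7.68e-04 with library size alone, 0.00106 and 0.00107 with limma, 0.00972 with the mural and 0.00972 with the platelet score, and 0.0166 and 0.0122 with the start position corrections by the authors' and the principal length, and without single mice it ran from −0.024 to 0.00364. Apln ran from −0.080 to 0.26 without single mice.

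Replicate numbers are shared between the diets, but nothing ties a number to a litter or batch (the study calls its mice littermates without giving litters), and the correlations of same-numbered mice were 0.00437, 0.0936, 0.00717, −0.134 and −0.00847, with no mouse correlating best with its own number. With the replicate block the adjusted p of Dll4 was 0.0701 and that of Cd79a 0.0541. Angpt1 and Apln have wide intervals, and the variance of their raw counts over the 10 mice was 11.8 and 29.8 times the mean, more than counting error alone gives.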
